A study of Mus musculus with 2 samples.

Results

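Open chromatin of the embryonic mouse femur was examined at the 8 genes of the collagens that build growth plate cartilage, Col2a1, Col9a1, Col9a2, Col9a3, Col11a1, Col11a2, Col27a1 and Col10a1. They are 8 of the 20722 protein-coding genes on chromosomes 1 to 19, and they were chosen by name. ATAC-seq, in which a transposase cuts and tags accessible DNA, was performed on the proximal and the distal growth plates of the femur from FVB mouse embryos at E15.5, with no genetic or drug treatment at either end. Each end was dissected away from the bony shaft, the ends from a single litter were pooled for a sample, and cells were freed with collagenase. The pooled tissue held all chondrocyte zones and perichondrium, so a peak cannot be assigned to a zone. For each end, 1 list of peak positions (mm10) combined 2 biological replicates and carried no height, score or read count: 28257 peaks for the proximal femur and 27958 for the distal femur. Overlapping peaks of both lists were joined into 32388 regions, and 43 of them lay inside a member gene or within 50 kb of either end of it. With 1 list per end, the spread between replicates cannot be computed and no test was made. The lists give no read count behind a peak. A missing peak states only that no peak passed the authors' threshold there.

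Cartilage matrix is built on thin fibrils. Collagen II, a trimer of the Col2a1 product, forms the bulk of each fibril. Collagen XI (Col11a1 and Col11a2) sits in the core of the fibril and limits its width. Collagen IX (Col9a1, Col9a2 and Col9a3) decorates the fibril surface. Collagen XXVII (Col27a1) is a further fibril-forming collagen of cartilage, and collagen X (Col10a1) forms a network and is made by hypertrophic chondrocytes. SOX9, with SOX5 and SOX6, is known to drive the genes of collagens II, IX and XI through paired sites in enhancers, the best known of which lies in the first intron of Col2a1. RUNX2 is known to act on Col10a1 at hypertrophy. A peak in both lists is called shared below, and a peak without overlap in the other list is called distal only or proximal only.

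Reference sequence (GRCm38, the mm10 build, from C57BL/6J and not FVB) is given for the places on which the results turn. The first set is shown because it spans the range of start types among the members. It gives the 150 bases upstream of the start of the longest protein-coding transcript, in the direction of the gene. Given are a shared start (Col2a1) and a shared start without any CG in these bases (Col9a1). A distal-only start (Col11a2) and a start without a peak (Col10a1) are given as well. The first 150 bases of Col9a2 intron 1, all inside a distal-only peak, follow. Capitals mark each CG.

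Col2a1 upstream of the start (chr15:98004696-98004845, minus strand): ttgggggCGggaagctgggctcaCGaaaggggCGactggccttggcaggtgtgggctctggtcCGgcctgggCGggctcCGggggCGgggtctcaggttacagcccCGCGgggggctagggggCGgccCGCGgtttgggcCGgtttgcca
Col9a1 upstream of the start (chr1:24177460-24177609, plus strand): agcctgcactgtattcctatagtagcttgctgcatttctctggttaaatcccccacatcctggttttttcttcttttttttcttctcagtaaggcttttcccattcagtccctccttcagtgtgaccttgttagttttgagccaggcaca
Col11a2 upstream of the start (chr17:34039287-34039436, plus strand): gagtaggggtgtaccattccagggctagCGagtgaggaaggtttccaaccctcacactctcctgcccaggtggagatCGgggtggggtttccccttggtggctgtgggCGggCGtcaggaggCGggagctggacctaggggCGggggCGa
Col10a1 upstream of the start (chr10:34389831-34389980, plus strand): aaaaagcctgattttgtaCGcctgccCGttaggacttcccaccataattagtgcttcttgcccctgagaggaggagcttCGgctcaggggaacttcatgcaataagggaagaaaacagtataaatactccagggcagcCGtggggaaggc
Col9a2 intron 1 (chr4:121039787-121039936, plus strand): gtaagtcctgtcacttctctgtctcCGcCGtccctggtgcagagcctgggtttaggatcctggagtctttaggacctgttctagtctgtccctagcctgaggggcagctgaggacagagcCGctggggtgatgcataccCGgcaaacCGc

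The second set is shown because RUNX motifs were more frequent in the member regions than in all regions, as given below. It holds 81 bases from each of 6 shared regions, around the first match to TGTGGT or its complement ACCACA in the central 300 bp of the region. Capitals mark RUNX matches and the AP-1 match TGAGTCA, and the number is the order of the region along its gene from upstream to downstream.

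Col2a1 region 2 (chr15:98014397-98014477, minus strand): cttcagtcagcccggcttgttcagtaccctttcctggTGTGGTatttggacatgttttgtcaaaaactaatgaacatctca
Col10a1 region 1 (chr10:34356492-34356572, plus strand): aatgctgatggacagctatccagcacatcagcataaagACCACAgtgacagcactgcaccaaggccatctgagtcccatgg
Col9a1 region 7 (chr1:24236564-24236644, plus strand): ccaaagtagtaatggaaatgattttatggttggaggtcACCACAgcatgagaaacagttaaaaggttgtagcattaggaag
Col11a1 region 4 (chr3:114065474-114065554, plus strand): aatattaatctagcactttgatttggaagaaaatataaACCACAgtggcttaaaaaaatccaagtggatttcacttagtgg
Col9a2 region 3 (chr4:121041127-121041207, plus strand): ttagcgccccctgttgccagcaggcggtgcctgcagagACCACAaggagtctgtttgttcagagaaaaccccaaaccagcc
Col27a1 region 8 (chr4:63316176-63316256, plus strand): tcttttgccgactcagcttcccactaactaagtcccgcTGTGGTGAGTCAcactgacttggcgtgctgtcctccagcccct

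The Col27a1 stretch was the single one of the 6 that held an AP-1 match, and this match overlapped the RUNX match by the T that ends TGTGGT. The regions lie 9.73 kb upstream of Col2a1, 33.3 kb upstream of Col10a1, in intron 33 of Col9a1, in intron 3 of Col11a1, over exon 2 of Col9a2 with the introns beside it, and in intron 41 of Col27a1.

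Of the 43 regions, 31 were shared (72.1%, 57.3 to 83.3, a 95% interval by Wilson's method for counting error alone) and 12 were distal only (27.9%, 16.7 to 42.7). No region was proximal only: 0 of 43, which allows a share of up to 6.98% when 3 counts of the total are taken as the limit, and of up to 8.2% by the Wilson interval. Over all 32388 regions, 73% were shared, 12.9% were distal only and 14.1% were proximal only. The shared percentage of the member windows was thus near that of all regions, and the single-end regions of the windows were all from the distal list, against 47.9% of all single-end regions. Of the 8 members, 6 had a distal-only region in their window and 0 had a proximal-only region, where 28.1% and 24.6% of all protein-coding genes had one. The count of 0 depended on the setting. When peaks narrower than the list median were dropped, the windows held 25 regions, of which 60% were shared, 5 were distal only and 5 were proximal only. Of the single-end ones, 2 had been distal only with all peaks. The other 3 distal-only and all 5 proximal-only regions had been shared and lost a narrower peak of the other list. Over all 16418 regions left by that setting, 71.3% were shared, 2298 were distal only and 2411 were proximal only. Windows of 100 kb held 15 distal-only and 4 proximal-only regions. These 4 lay 64 to 85.3 kb from Col9a1, Col9a2, Col9a3 and Col11a1. 

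**Figure D1:**
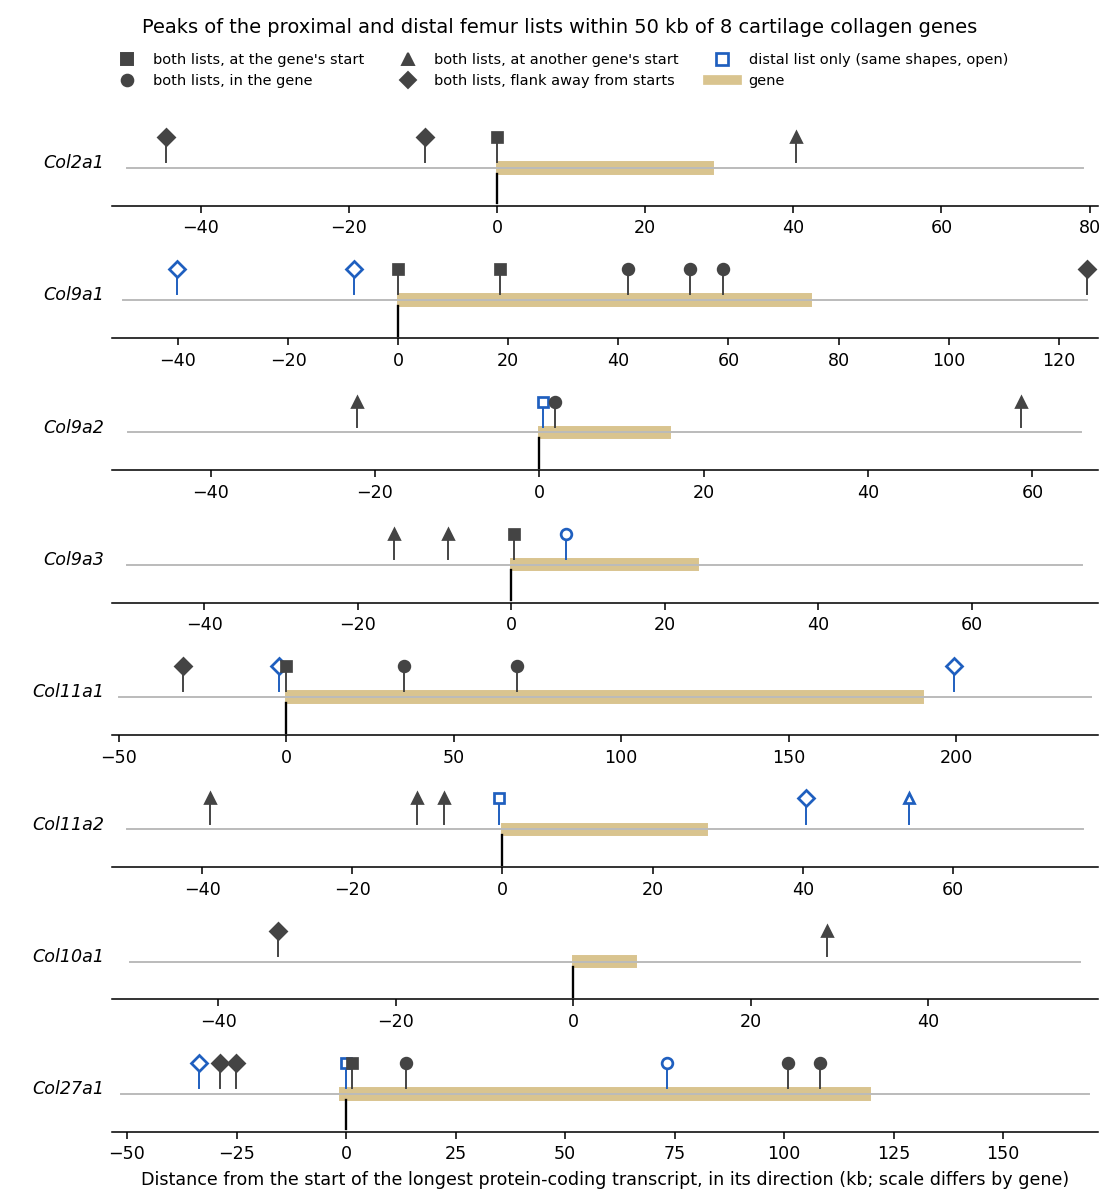
Regions in the windows of the 8 genes by distance from the start of the longest protein-coding transcript, in kb and in the direction of the gene, on a scale that differs between genes. Filled marks are shared and open blue marks are distal only, squares lie at a start of the gene, circles in the gene, triangles at the start of another gene and diamonds in the flank away from starts. The body of Col2a1 holds only its start region, the start of Col11a2 has an open mark, and Col10a1 has no mark at its start or in its body.

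Col2a1 (chr15:97975602-98004695, minus strand) encodes the main chain of cartilage fibrils. Its window held 4 regions, all shared. The start region (chr15:98004222-98005320, 1099 bp) covered exon 1 and the beginning of intron 1, with a proximal peak of 866 bp and a distal peak of 1036 bp. This was the single region over the body of the gene, and it covered 474 bp of 29.1 kb. The first intron (chr15:98000607-98004408, 3802 bp) overlapped this region for 187 bp at its beginning, and no region lay wholly inside it in either list. Upstream, a shared region at 9.73 kb (chr15:98014129-98014727, 599 bp; second set above) was nearer to the start of Col2a1 than to any other coding start. The region at 44.6 kb upstream (chr15:98048929-98049762, 834 bp) lay inside Senp1, a SUMO protease gene, and the region at 40.4 kb downstream of the start lay at the start of Tmem106c.

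Col11a1 (chr3:114030540-114220718, plus strand) encodes the alpha 1 chain of collagen XI. Of its 6 regions 4 were shared. The start region (chr3:114030007-114030952) had peaks of 894 bp in the proximal list and 946 bp in the distal list, which overlapped by 94.5% of the wider peak. Inside the 190 kb gene, shared regions lay in intron 3 at 35.1 kb (chr3:114065192-114066079, 888 bp) and over exons 10 and 11 at 69 kb (chr3:114099117-114099995, 879 bp). The proximal and distal peaks of the intron 3 region overlapped by 98.6% of the wider peak, the closest pair among the members. A shared region lay 30.8 kb upstream (chr3:113999307-114000226), where the distal peak was 523 bp and the proximal peak 920 bp, the least matched pair among the members at 56.8%. Distal-only regions lay 2.13 kb upstream of the start (chr3:114028231-114028598, 368 bp) and 8761 bp past the end of the gene (chr3:114229480-114229941, 462 bp). The latter was 94471 bp from the nearest proximal peak.

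Col11a2 (chr17:34039437-34066685, plus strand) encodes the alpha 2 chain of collagen XI and lies among genes of the major histocompatibility complex. Its start region (chr17:34038455-34039619, 1165 bp) had a peak in the distal list alone and reached from 982 bp upstream of the start into exon 1. The nearest proximal peak was 6338 bp away. Of the 4194 distal-only regions of the genome, 98.9% were narrower than this one. The 736 distal-only regions at coding starts had a median of 610 bp, a quartile 3 of 784 bp and a maximum of 1591 bp. Over all genes, 2.7% had a start region in the distal list alone, and Col11a2 and Col9a2 were in this class among the members. No region lay in the rest of the gene, of which 183 bp were covered. Of the other 5 regions, 4 lay at starts of neighbours: H2-K1, H2-Ke6 and a region between Rxrb and Slc39a7 were shared, and H2-Oa, a chain of a class II molecule, was distal only (chr17:34093280-34093874, 595 bp). The fifth, 40.4 kb downstream of the start (chr17:34079582-34080089, 508 bp), was distal only and away from starts, and its nearest coding start was that of H2-Oa. H2-K1 belongs to a family of closely similar genes, so the placement of reads there is uncertain.

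Col27a1 (chr4:63214004-63334991, plus strand) encodes the alpha 1 chain of collagen XXVII and had the most regions, 9, of which 6 were shared. At the start of its coding transcript, a narrow distal-only region (chr4:63215186-63215540, 355 bp) was followed by a shared region in intron 1 (chr4:63216362-63217070, 709 bp) whose edge was 927 bp from the start. Because of this second region the gene counts as having a shared start. With a limit of 500 bp, or with narrow peaks dropped, its start is distal only, and with only the 5 prime end of the gene as the start it has no start region. The distance between the distal-only region and the nearest proximal peak was 830 bp. Inside the gene, shared regions lay in intron 3 at 13.8 kb (715 bp), in intron 41 at 101 kb (chr4:63315851-63316642, 792 bp) and over exon 50 at 108 kb (552 bp). A distal-only region lay in intron 24 at 73.2 kb (chr4:63288376-63288909, 534 bp). Upstream, a distal-only region of 303 bp at 33.7 kb and shared regions of 744 bp at 28.9 kb and 764 bp at 25.1 kb formed a group, nearer to the start of Kif12, a kinesin gene, than to that of Col27a1.

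The genes of collagen IX encode the chains of a heterotrimer on the fibril surface. Col9a1 (chr1:24177610-24252684, plus strand) had 8 regions, 6 shared and 2 distal only, and has coding starts at positions 24177610 and 24195187, known to give a long form in cartilage and a short form in the eye. Both starts had a shared region. That of the upstream start (chr1:24177227-24177979) had a proximal peak of 541 bp and a distal peak of 753 bp. The region after the downstream start (chr1:24195255-24196897) was the widest of the 43, at 1643 bp, with a proximal peak of 1643 bp and a distal peak of 1324 bp over exons 7 and 8. It began past the annotated downstream start, so the lists alone do not separate a start peak from an intragenic one. Further shared regions lay in intron 20 at 41.7 kb (455 bp), over exon 30 at 53.1 kb (654 bp) and in intron 33 at 59 kb (chr1:24236323-24236944, 622 bp). Distal-only regions lay 7.97 kb upstream (chr1:24169327-24169960, 634 bp) and 40.2 kb upstream (523 bp), the latter nearer to the start of Fam135a. A shared region in Col19a1, a neighbouring collagen gene, reached into the window at 49917 bp past the end.

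Col9a2 (chr4:121039385-121055322, plus strand) had 4 regions. Its start region (chr4:121039432-121040338, 907 bp) was distal only and covered most of exon 1 and part of intron 1. Of all distal-only regions, at starts or not, 94.7% were narrower, and quartile 3 of those at coding starts was 784 bp. A shared region over exon 2 (chr4:121040868-121041747, 880 bp) began 529 bp further on, with a proximal peak of 862 bp and a distal peak of 796 bp. The proximal list thus had a peak in the beginning of Col9a2 but not at its start, and the distal list had both. The state is changed by the limit: with 2 kb in place of 1 kb, or with peaks up to 1 kb apart joined, Col9a2 counts as shared. The other regions were shared and lay at the starts of Smap2 and of Zmpste24, which encodes the protease that matures lamin A.

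Col9a3 (chr2:180597790-180622189, plus strand) also had 4 regions. Its start region (chr2:180597737-180598691) was shared, with a distal peak of 955 bp and a proximal peak of 667 bp over exons 1 and 2. A distal-only region lay in intron 11 at 7.17 kb (chr2:180604738-180605183, 446 bp). The regions upstream, at 15.2 and 8.27 kb, were shared and lay at the starts of Mrgbp and Ogfr.

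Col10a1 (chr10:34389981-34397085, plus strand), the collagen of hypertrophic cartilage, had a peak in neither list at its start or over its 7105 bp, as did 41.8% of all protein-coding genes at their starts. The window held 2 regions, both shared. The gene lies wholly inside Nt5dc1, which runs on the minus strand (chr10:34288288-34418552). A region of 571 bp lay 33.3 kb upstream within Nt5dc1 (chr10:34356370-34356940; second set above), with a proximal peak of 571 bp and a distal peak of 427 bp, and its nearest coding start was that of Col10a1. The other (chr10:34417997-34419157, 1161 bp) lay at the start of Nt5dc1. No setting that was run gave Col10a1 a start region. None could have, because start distances went up to 2 kb and the nearest region lay 20911 bp from the gene.

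By place, 9 of the 43 regions were start regions of the members (6 shared, 3 distal only), 11 lay elsewhere in the genes (9 shared, 2 distal only), 10 lay at starts of neighbours (9 shared, 1 distal only) and 13 lay in the flanks away from starts (7 shared, 6 distal only). Over all regions away from any coding start, 62.8% were shared, 16.8% were distal only and 20.4% were proximal only, and among regions at coding starts 90.6% were shared, 6.22% were distal only and 3.16% were proximal only. The distal-only share was 46.2% (23.2 to 70.9) in the member flanks away from starts and 18.2% (5.14 to 47.7) elsewhere in the member genes. Of the 13 flank regions, 7 had the member as the nearest coding start, and the others were nearer to another gene. The 16.8% of all regions away from starts covers places inside and outside genes. Of the 24 member regions away from starts, inside or outside the genes, 66.7% were shared, beside 62.8% of all such regions, and the others were distal only. Of the 11 regions inside the genes, 7 touched no exon. By gene, 5 of 8 members had a shared start region (Col2a1, Col9a1, Col9a3, Col11a1 and Col27a1), where 54.1% of all protein-coding genes had one. Over all protein-coding genes, 19.6% had at least 1 distal-only and no proximal-only region in the window, and 0.642% had 3 or more, the number in the windows of Col11a2 and Col27a1. The limit of 3 was taken from these windows, which held 6 and 9 regions, beside a median of 3 over all genes. The 0.642% thus does not measure how unusual they are.

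**Figure D2:**
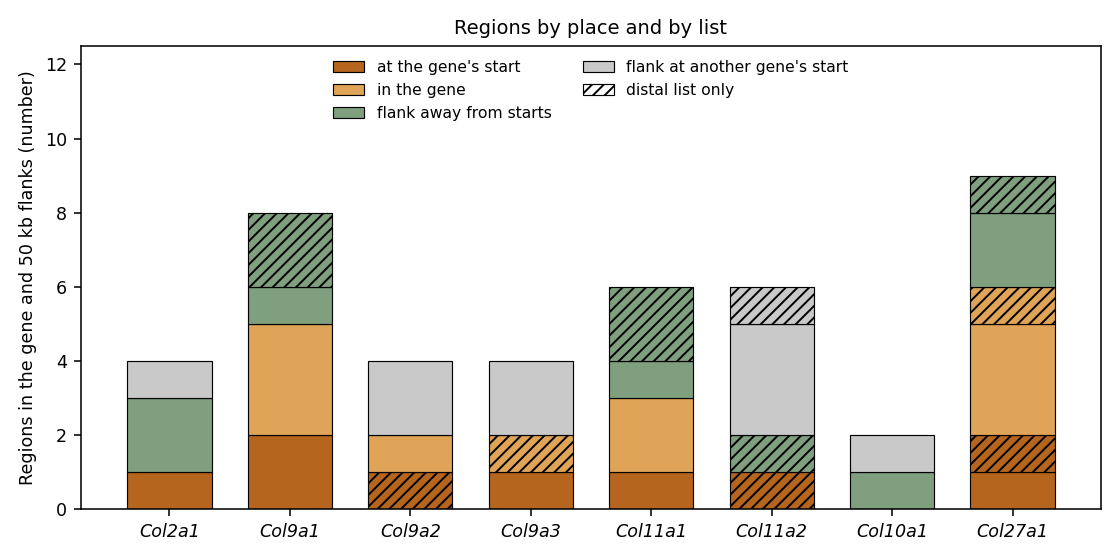
Number of regions in the window of each gene, stacked by place, with hatching for regions in the distal list alone. Col27a1 has 9 and Col9a1 has 8, and Col10a1 has 2, neither of them at the gene itself.

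The median member window was denser in regions than the median gene. It held 5 regions, and the median density was 3.33 per 100 kb of window, beside 3 regions and 2.07 per 100 kb over all protein-coding genes. Among the lists given below, the median density was 3.21 for collagen folding and processing, 3.09 for other cartilage matrix and 3.1 for chondrocyte markers. It was 2.17 for other collagens and 2.15 for regulators of collagen genes. Col11a2 had 4.72 per 100 kb, above 87.7% of genes, of which most lay at neighbours. Col9a1 had 4.57 (above 86.4%) and Col27a1 had 4.07 (above 82.9%). Col11a1, the longest member, had 2.07, and Col10a1 had 1.87, below the median gene.

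Shared regions of the members had a median width of 834 bp (455 to 1643), and all shared regions had 812 bp. Distal-only regions of the members had a median of 516 bp (303 to 1165), and all distal-only regions had 497 bp. Apart from the start regions of Col11a2 and Col9a2, the distal-only regions were at most 634 bp wide. In the 6 shared start regions of the members the distal peak was the wider in 5, the exception being the downstream start of Col9a1, beside 45.2% of all shared regions at coding starts that held 1 peak of each list. Over all 31 shared member regions the proximal peak was the wider in 19 (61.3%), beside 57.1% of all shared regions with 1 peak of each list. The distance from a distal-only region to the nearest proximal peak ran from 529 to 94471 bp, with a median of 6810 bp, and 2 of 12 were within 1 kb. Over all distal-only regions the median was 20992 bp and 4.1% were within 1 kb. The overlap of the paired peaks, as a share of the wider peak, had a median of 84.1% in the member regions and 90% in all shared regions.

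**Figure D3:**
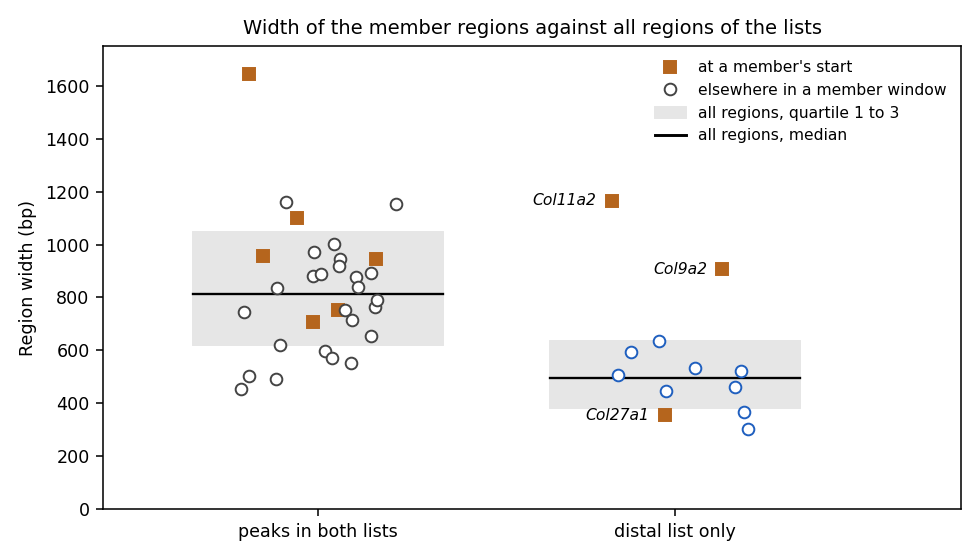
Width in bp of each member region by list. Grey boxes run from quartile 1 to quartile 3 of all shared or all distal-only regions, at starts or not, with the median as a line. Among distal-only regions, the start regions of Col11a2 (1165 bp) and Col9a2 (907 bp) lie above the box, and that of Col27a1 (355 bp) lies below it.

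Letters of known motifs were searched on both strands in the central 300 bp of each region. RUNX motifs (TGTGGT or ACCACA) were found in 17 of 43 member regions (39.5%, 26.4 to 54.4), beside 19.5% of all regions. Away from starts they were in 15 of 24 (62.5%, 42.7 to 78.8), beside 25%. Every member had such a region in its window, and for Col10a1 it was the region 33.3 kb upstream. The share of all genes with such a region in the window was not computed, and the median member window held more regions than that of all genes. Some matches lay at neighbours, such as the start of H2-Ke6 in the Col11a2 window. AP-1 motifs (TGAGTCA or TGACTCA, each the complement of the other) were found in 8 of 43 (18.6%, 9.74 to 32.6), beside 24.7% of all regions, and 4 of the 8 were in the window of Col27a1. The SOX core ACAAT or ATTGT was found in 7 of 43 (16.3%, 8.12 to 30), beside 21%. An inverted pair of these cores with 2 to 6 bases between, the letters of a paired SOX site, was found in 0 of 43, beside 0.0988% of all regions. At so low a share, 0 of 43 does not set the members apart. The same letters were found 0 times in the whole first intron of Col2a1, which holds the best known enhancer. A count of 0 thus does not state that paired sites are absent. In whole regions in place of the central 300 bp, 1 pair was found, in the intron 3 region of Col11a1 at chr3:114065899-114065913, beside 0.33% of all whole regions. In shared member regions RUNX motifs were in 13 of 31 and in distal-only ones in 4 of 12. These exact letters miss sites with other bases, and a match is not evidence that a factor is bound. Sequence of FVB mice was not analysed here.

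The content of CG at the starts differed widely among the members. The ratio of observed to expected CG in 1 kb around the start was highest for Col27a1 (0.747) and Col2a1 (0.603), and genes with shared starts had a median of 0.741. It was 0.459 for Col11a1 and 0.443 for Col9a3, with 11.9% and 11% of genes with shared starts below them. The start of Col9a1 had a shared region at a ratio of 0.183, and 2.11% of genes with shared starts had a lower one. The distal-only starts had 0.481 (Col9a2) and 0.383 (Col11a2), beside a median of 0.628 for distal-only starts. Col10a1 had 0.344, above 71.7% of the genes without a start region, whose median was 0.205. Col9a1 had thus a lower ratio with a start region than Col10a1 without one. In the 150 bases printed above, CG occurred 13 times for Col2a1, 7 for Col11a2, 4 for Col10a1 and 0 for Col9a1.

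**Figure D4:**
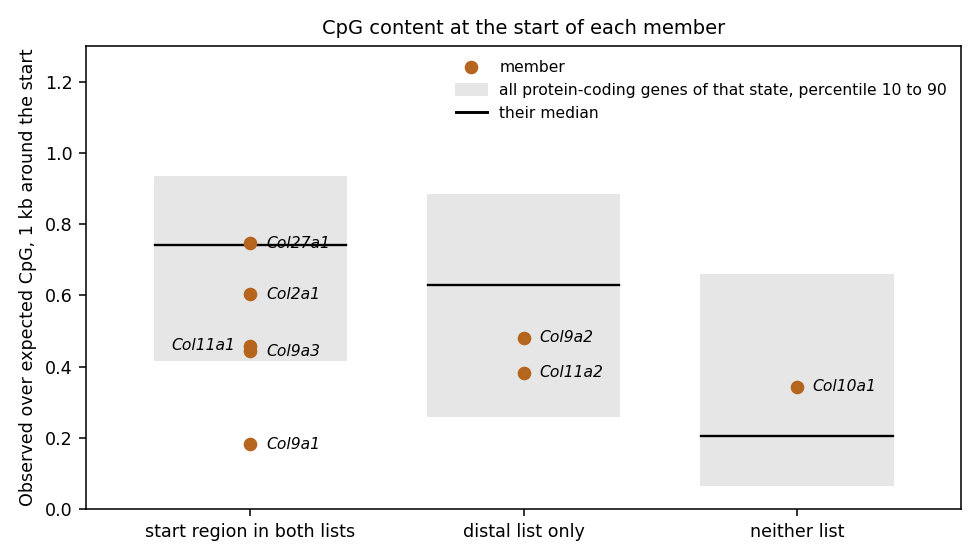
Observed over expected CpG in 1 kb around the start of each member, by whether the start had a region in both lists, the distal list alone or neither. Grey boxes run from percentile 10 to 90 of all protein-coding genes of that state and lines are their medians. Col9a1 (0.183) lies below the box of shared starts (from 0.419), and Col10a1 (0.344) lies above the median of starts without a region (0.205).

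Other genes of collagen and cartilage were read from lists of names. Of 33 other collagen genes, 18 had a shared start region (54.5%), near the 54.1% of all protein-coding genes. Those of Col8a2, Col18a1 and Col22a1 were distal only, that of Col5a2, a chain of the fibril collagen V, was proximal only, and Col1a1, Col5a3, Col6a5, Col6a6, Col7a1, Col13a1, Col17a1, Col20a1, Col24a1, Col26a1 and Col28a1 had none. Pooled over the 33 genes, their windows held 27 distal-only and 22 proximal-only regions. As a set they thus had both kinds, unlike the 8 member windows at this window size. A distal-only region lay in the windows of 19 of these genes, and a proximal-only region in those of 15. Single genes were one-sided too. Col6a3 and Col17a1 had 3 distal-only and 0 proximal-only regions, and Col1a2 and Col5a3 had 3 proximal-only and 0 distal-only regions. Of 31 genes that fold, modify, export or process collagen, 27 had a shared start (87.1%). Pcolce, which aids removal of the C-propeptide, was distal only, Adamts14, a propeptidase, was proximal only, and P4ha3 and Loxl2 had no start region. Of 17 genes listed for other cartilage matrix (Bgn, on the X chromosome, was not analysed here), 6 had a shared start (35.3%) and Comp was distal only. Papss2 and Xylt1, which encode enzymes and not matrix proteins, were among the 6. Matn1, Epyc, Chad, Snorc, Ucma, Cilp, Prg4, Fmod, Dcn and Lum had no start region. In this list 10 of 17 starts had no region, and among the members 1 of 8, beside 41.8% of all protein-coding genes. Over both together, 11 of 25 starts (44%) had none, and Col10a1 was 1 of the 11. Of 17 regulators of collagen genes, 8 had a shared start (47.1%), Sox9 and Sox6 among them. Sox5 was proximal only, Barx2 and Dlx5 were distal only, Trps1 had separate peaks of both lists, and Runx2, Runx3, Foxa2, Pth1r and Ihh had none.

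The labelled tissue was checked against markers. Over all protein-coding genes, 54.1% had a shared start and 41.8% had no start region. Of 8 chondrocyte markers (Col2a1 among them, and 6 others also in the matrix list), 6 had a shared start, Comp was distal only and Matn1 had none. Of the 11 genes of the matrix list not used as markers, 2 had a shared start (the enzyme genes Papss2 and Xylt1) and 9 had no start region. Of 8 osteoblast and perichondrium markers, 0 had a shared start, Spp1 was proximal only, and Col1a1, Sp7, Ibsp, Bglap, Dmp1, Alpl and Postn had none. None of 7 muscle markers (Myod1, Myf5, Myog, Actc1, Myh3, Ttn and Tnnt3) and none of 5 neural markers (Neurod1, Tubb3, Elavl3, Olig2 and Sox10) had a start region. Of 6 endothelial markers, Kdr was shared, Tek was distal only, and Cdh5, Pecam1, Tie1 and Emcn had none. Of 5 blood markers on the chromosomes covered, Cd68 was proximal only, and Ptprc, Spi1, Csf1r and Tyrobp had none. Of 5 epithelial markers, Epcam was shared, Krt8 was distal only, and Krt5, Krt14 and Cdh1 had none. Fewer cells of a type and less open chromatin per cell cannot be told apart in such pooled tissue.

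**Figure D5:**
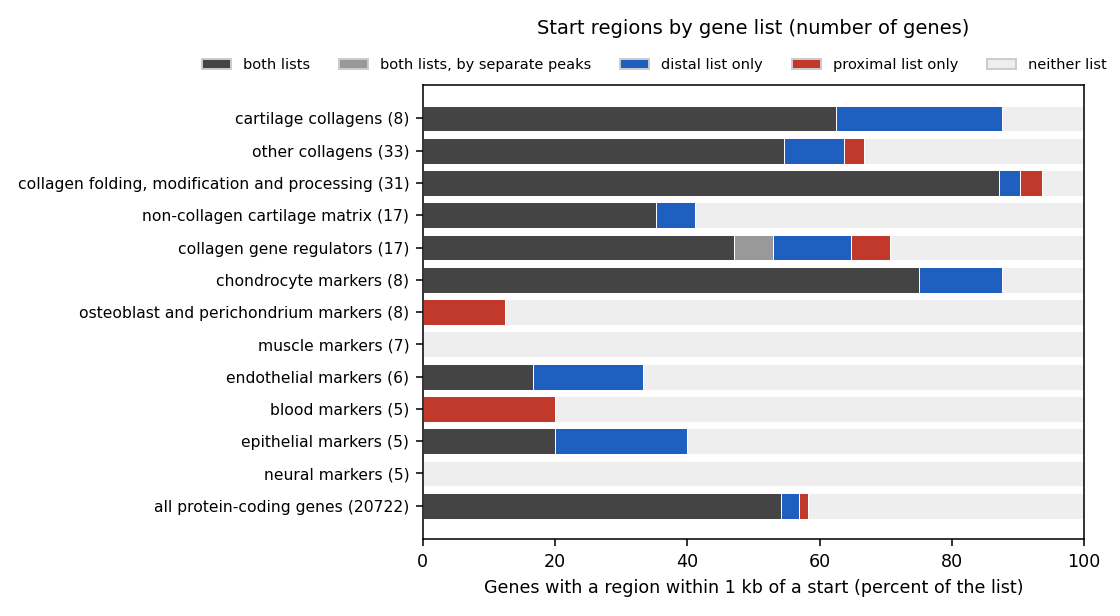
Percent of the genes of each list with a region within 1 kb of a start, by list of peaks, with the number of genes in brackets. Among the cartilage collagens 5 of 8 starts are shared, 2 are distal only and 1 has no region, beside 54.1%, 2.7% and 41.8% of all protein-coding genes.

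The members were also set beside 133 genes of these lists by 4 entries: the state of the start, the number of shared regions in the gene away from starts, the number of single-end regions and the number of shared flanking regions away from starts. Equal in all 4 to Col2a1 was Serpinh1, which encodes a collagen chaperone, and equal to Col9a1 was P3h2, a prolyl hydroxylase of collagen. Col9a3 equalled Fkbp10, Kdr, Lox, Loxl1, Mia2, Nfat5, P4ha1 and Sox9. Col10a1 equalled Col7a1, Ihh, Myog, Olig2, Tnnt3, Tyrobp and Ucma. Col9a2, Col11a1, Col11a2 and Col27a1 had no equal in the lists, and 24, 37, 28 and 6 other genes of the 20722 had their entries. Over so few whole numbers, equal entries can be frequent. Those of Col9a3 occurred in 1462 other genes, those of Col10a1 in 993 and those of Col2a1 in 490. Those of Col9a1 occurred in 18.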

How the data were processed

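Peak lists of ATAC-seq were used, 1 for the proximal and 1 for the distal femoral growth plates at E15.5. The 3 columns the authors deposited for each peak (chromosome, start and end) hold positions and no other values. According to the methods, reads had been mapped by the authors to mm10 (Bowtie2, version 2.2.8 per the labels) and freed of duplicates, and MACS2 peaks were retained where reproducible between 2 biological replicates at an IDR under 0.05. Each list is thus a joint call, and how reads were shifted for the transposase is not given in the sources used here. The IDR step keeps peaks strong in both replicates, so a peak near the threshold may be absent from 1 list. Only chromosomes 1 to 19 occur in the lists. The reads and their depth, which the study gives per library, were not analysed here, and the lists hold no depth per peak.

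Starts were read as counted from 0, and positions are given counted from 1. Peaks that overlapped by 1 bp or more were merged with scripts (matplotlib 3.10.9, NumPy 2.4.6, pysam 0.24.0, Python 3.11.15, samtools 1.23.1, SciPy 1.17.1) and compared with GENCODE mouse release 21 and the GRCm38 sequence. A region belonged to a gene when it lay inside it or within 50 kb. A start region had its nearest edge within 1 kb of the start of a protein-coding transcript. Introns and exons were numbered in the protein-coding transcript with the longest exon sum. Merging, placement and motif search were tested on simulated data. Shares carry 95% Wilson intervals, a count of 0 also the limit of 3 counts, and no test was made because each end has 1 list.

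The members and the lists of other genes were chosen with earlier results of these data known. Named were the members with every region, genes whose start in a member window had a region, genes of each list with a start region in 1 list or none, and list genes equal to a member in 4 entries. Other window sizes, start distances, start sets, overlap rules, peak widths and motif windows were tried.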

Additional observations from a re-analysis of the deposited data

How the results depend on the processing

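No paired analysis was possible because each list combines the replicates of its end, and for the same reason no replicate could be left out. The limits are those of position lists: height, read count per peak and replicate spread are not in them, and a distal-only region can be a peak near the threshold. Against the 12 values given in the report, 37 recomputed values stayed within the bounds set for a like value and 13 moved. With windows of 100 kb in place of 50 kb, the windows held 70 regions in place of 43, 4 proximal-only regions in place of 0, and 26 flanking regions away from starts in place of 13, and with windows of 20 kb they held 5 of the latter. When peaks narrower than the list median were dropped, a choice made because the lists have no score, 25 regions were left, of which 5 lay in the genes away from starts and 4 in flanks away from starts, 3 members had a shared start in place of 5, and 5 regions were distal only and 5 proximal only. All 5 of the latter and 3 of the former had been shared and lost a narrower peak of the other list. With this setting 60% of the window regions were shared, beside 71.3% of all regions. Col27a1 had no start region with only the 5 prime end of the gene as the start. RUNX motifs were in 62.5% of regions away from starts and in 55.8% of whole regions (38.5% of all whole regions), and the SOX core was in 46.5% of whole regions (49.2%). Counts of distal-only and proximal-only regions under other settings, and the joining of peaks up to 1 kb apart, were added after seeing the data. Col11a2 stayed distal only and Col10a1 without a start region in every setting that was run. No setting could have made Col11a2 shared or given Col10a1 a start region. Start distances went up to 2 kb, and peaks up to 1 kb apart were joined. The nearest proximal peak lay 6338 bp from the Col11a2 start region, and the nearest region lay 20911 bp from Col10a1.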
